A study of Mus musculus with 16 samples.

Results

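The transcription factor p53 and the genes that respond to DNA damage were followed in cells washed from the airways of mice given bleomycin or saline. The gene module held 32 genes, chosen by symbol from known p53 targets and damage response genes, with earlier results of these data known. All 32 of the 54532 genes in the count table were found, and all 32 were among the 15257 genes that passed the filter on low counts. That filter was met by 31 of them under saline too, whereas Eda2r reached its level (0.51 CPM) in 0 of 8 saline and 8 of 8 bleomycin libraries, so that its inclusion rested on the bleomycin groups. Gadd45a reached that level in 7 of 8 saline libraries.

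The mice, for which the labels state no genotype, were males and females aged 8 to 10 weeks, of a strain written C56BL/6J in the sample labels and C57BL/6 in the design text. Saline or bleomycin (4 U per kg of body weight) was given into the oropharynx, and lavage cells were taken for RNA sequencing at 14 days. The 4 groups, named Bleomycin-Males, Bleomycin-Females, Saline-Males and Saline-Females in the labels, had 4 libraries each. Lavage cells are a mixture of macrophages, lymphocytes, granulocytes and shed epithelium, so a level below is a level in that mixture.

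In a resting cell p53 is made and destroyed continuously, because its own target Mdm2 marks it for breakdown. Strand breaks such as those that bleomycin makes in DNA activate kinases that free p53 from Mdm2, and the stabilised protein then switches on genes that hold the cell cycle, aid repair, lower oxidative stress or start apoptosis. This control acts mainly on the protein, and the RNA of p53 itself need not move. In the lung, bleomycin injures the epithelium first and draws monocytes and lymphocytes into the airspace, where macrophages take up damaged cells.

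The unit of level is CPM, a gene's counts relative to those of its whole library, with TMM scaling for composition. Values are listed by library in the order C74, C75, C76 and C77 for females given saline, C70, C71, C72 and C73 for males given saline, C49, C50, C68 and C69 for females given bleomycin and C33, C65, C66 and C67 for males given bleomycin. Changes are log2 fold changes of bleomycin over saline, averaged over the sexes unless a sex is named, with an approximate standard error (SE) and an adjusted p from edgeR's quasi-likelihood test with Benjamini-Hochberg adjustment over all 15257 genes. A gene is called risen or fallen at an adjusted p below 0.05. Libraries held 16385784 to 24567609 counts, and the sex-linked genes matched the sex label in 16 of 16 of them. Among bleomycin females, C49 had the lowest summed level of the 32 genes, 1478 CPM in a group that ran to 1796 CPM. Without it the counts of members called in the averaged comparison were the same.

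Of the 32 genes, 19 rose, 7 fell and 6 were not called. Among all genes tested 34.7% rose and 28.8% fell, so the share of members that rose (19 of 32) was above that background and the share that fell (7 of 32) below it. The median change of the members was 0.43, against 0.012 for all genes. In 11 of 32 members every bleomycin library was above every saline library, as it was for 19.2% of all genes, and in 4 of 32 every bleomycin library was below, against 10.3%. Eda2r is among these 11 and among the 19 that rose. Its inclusion rested on the bleomycin groups, so it was bound to lie higher there. Scaling by library totals alone moved the median change of all genes to -0.20 and gave 16 members higher and 9 lower. Among all 15257 genes it gave 3720 higher and 7004 lower. Under that scaling Ei24 changed sign (-0.026, not called), Sesn2 and Fas were no longer called, and Trp53 and Plk3 were called lower.

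**Figure D1:**
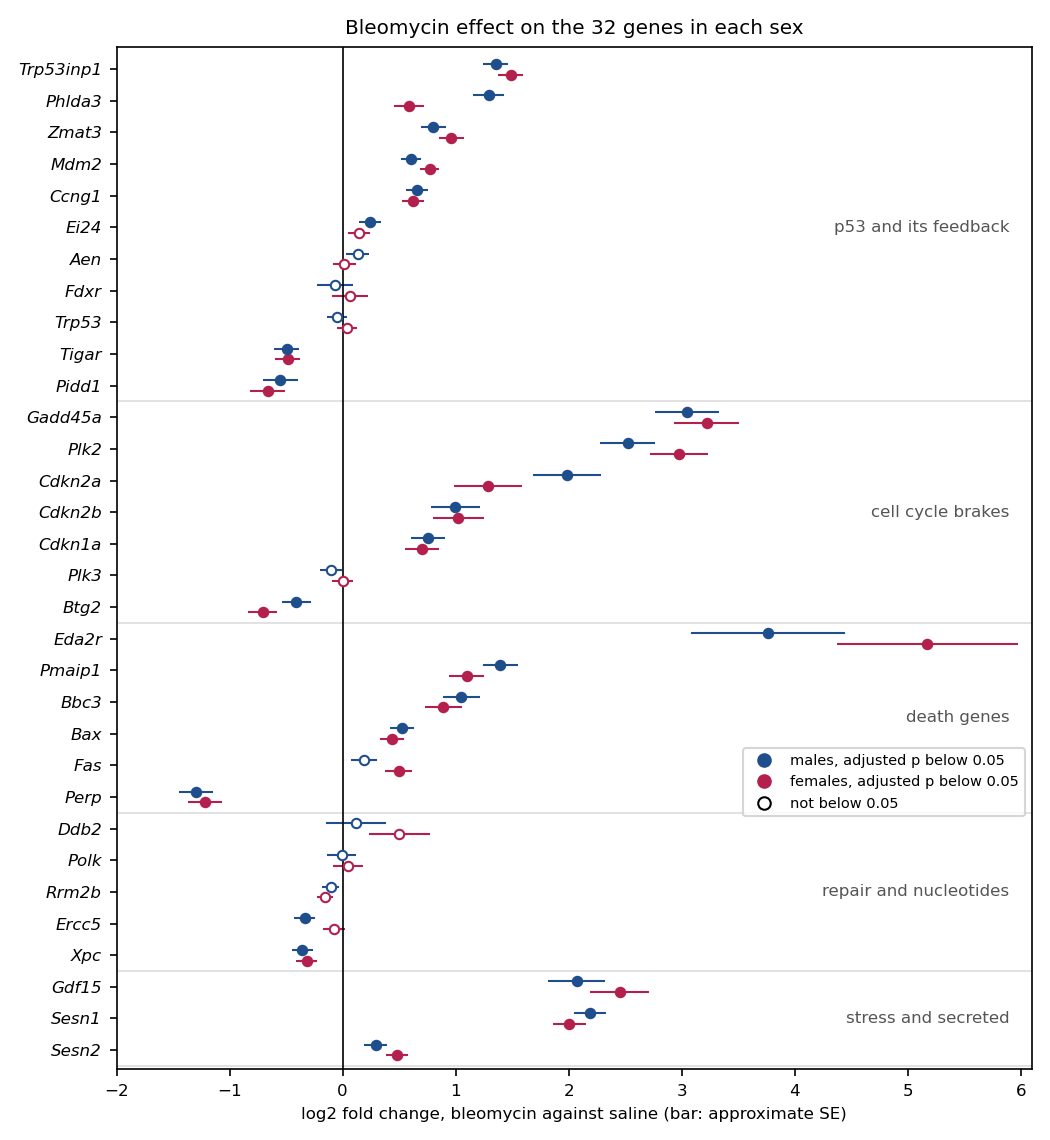
Log2 fold change of bleomycin over saline for each of the 32 genes (horizontal axis, with the approximate SE as a bar), in males (blue) and females (red), grouped by role. Filled points passed an adjusted p below 0.05. The points of the 2 sexes lie on the same side of 0 for every gene with a filled point in both, from Eda2r at the right to Perp at the left.

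Sequences before annotated starts of the genes were read because p53 acts by binding pairs of a short motif. RefSeq promoter windows on GRCm38.p6 were given for 25 of the 32 genes, with 33 windows in all, and the 250 bases before each start were searched on both strands for the canonical 10-base p53 motif and for the 20-base full site made of 2 adjoining copies of it. The 10-base motif stood in 10 of 33 member windows (30.3%) and in 7.13% of 32851 windows of all genes. A full site with at most 1 mismatch stood in 2 of 33 (6.06%), against 0.0761%, and the 2 genes were Cdkn1a and Ccng1, whose windows are shown for that reason with the full site (its mismatching base included) and any other 10-base motif in capitals. The Cdkn1a window is chr17:29090729-29090978 (plus strand) and the Ccng1 window chr11:40755287-40755536 (minus strand).
Cdkn1a: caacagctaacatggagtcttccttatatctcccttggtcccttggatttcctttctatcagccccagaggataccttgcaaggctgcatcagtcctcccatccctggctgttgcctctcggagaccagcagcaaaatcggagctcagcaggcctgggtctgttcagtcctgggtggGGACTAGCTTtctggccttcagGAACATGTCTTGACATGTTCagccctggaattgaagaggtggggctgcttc
Ccng1: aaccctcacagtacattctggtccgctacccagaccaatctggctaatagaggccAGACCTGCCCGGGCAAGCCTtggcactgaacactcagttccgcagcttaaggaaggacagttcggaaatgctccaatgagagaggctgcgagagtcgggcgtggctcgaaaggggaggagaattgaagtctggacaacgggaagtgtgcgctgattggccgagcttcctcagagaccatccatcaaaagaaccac
The full site of Cdkn1a, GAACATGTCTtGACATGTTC, begins 51 bases before the start (chr17:29090928-29090947), with the mismatching base in lower case. That of Ccng1, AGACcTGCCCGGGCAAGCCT, begins 195 bases before the start (chr11:40755462-40755481). Single 10-base motifs in the windows of genes that rose included GAACTTGCCT for Mdm2 (chr10:117710935-117710944, minus strand), GGGCTAGCCC for Gadd45a (chr6:67037438-67037447, minus strand), AAGCTTGTTT for Sesn1 (chr10:41887266-41887275, plus strand) and AGGCAAGCTT for Bax (chr7:45467090-45467099, minus strand). The windows of Sesn1 and Polk lie wholly inside the genes, before internal starts. The motifs of Ei24, Aen and Gadd45a also lie within the deposited gene bounds. Of the 10 genes with a 10-base motif, 7 rose (Cdkn1a, Mdm2, Ccng1, Bax, Sesn1, Ei24 and Gadd45a), 0 fell and 3 were not called (Trp53, Aen and Polk). The share that rose is near that of all members (19 of 32), and the Ei24 call was lost without C65, C66 or C69. Whether genes with a motif changed more was not tested. The members were chosen as known p53 targets and damage response genes. A higher share of motifs than in all windows may follow from that choice and is no result of these libraries. The matches describe letters in a window, and binding was not measured.

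The RNA of p53 itself did not pass the test, while 6 of the 11 genes grouped as p53 and its feedback rose (34.7% of all genes). That group also holds genes with other functions, such as Tigar, Fdxr, Aen and Pidd1. Its counts therefore do not describe the feedback on p53 alone. Trp53 (ENSMUSG00000059552, chr11:69580359-69591873, plus strand) averaged 64.4 ± 6.37 CPM (SD, n = 4) in females and 69.4 ± 4.44 CPM in males given saline, and 66.1 ± 5.13 and 67.2 ± 6.74 CPM under bleomycin. Its change was -0.004 with an approximate 95% interval of -0.13 to 0.12, and the libraries of the groups overlapped. Mdm2 (ENSMUSG00000020184, chr10:117688875-117710758, minus strand), the ubiquitin ligase that degrades p53 and is itself induced by it, measured 55.98, 49.2, 51.5 and 47.5 CPM in the saline females and 57.3, 65.8, 61.6 and 56.96 CPM in the saline males. Under bleomycin the values were 86.3, 102, 84.7 and 75.3 CPM in females and 96.3, 86.5, 91.2 and 93.5 CPM in males. Every bleomycin library lay above every saline library, a change of 0.69 (SE 0.061, adjusted p = 1.44e-08).

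Trp53inp1 (ENSMUSG00000028211, chr4:11156431-11174379, plus strand), a nuclear stress protein that aids p53 activity and autophagy, had the largest change among the 11 genes grouped with p53. It measured 47.3, 41.9, 40.02 and 36.8 CPM in the saline females and 48.1, 49.8, 55 and 41.4 CPM in the saline males. It measured 119.8, 135, 104 and 106 CPM in the bleomycin females and 115, 132, 109 and 139.9 CPM in the bleomycin males. The treatments were separated by a gap wider than the spread within either, and the change was 1.42 (SE 0.078, adjusted p = 2e-11). Ccng1 (ENSMUSG00000020326, chr11:40748552-40755311, minus strand), the cyclin G1 gene whose product works with Mdm2, ran from 149 to 166 CPM over the saline libraries and 194 to 292 CPM over the bleomycin libraries, with no overlap and a change of 0.64 (SE 0.069, adjusted p = 2.07e-07). Zmat3, an RNA-binding zinc finger gene, ran from 28.8 to 37.7 CPM under saline and 54.2 to 78.4 CPM under bleomycin (0.88, SE 0.078), also without overlap. Phlda3, which encodes a repressor of Akt signalling, rose by 0.94 (SE 0.095), and its values by sex are given below.

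Other genes of the same group moved little or fell. Pidd1, the scaffold that activates caspase 2, fell by 0.61 (SE 0.11, adjusted p = 0.000109), with bleomycin libraries at 6.26 to 11.03 CPM and saline libraries at 11.1 to 13.5 CPM. The highest bleomycin value, 11.03 CPM in C33, was just under the lowest saline value. Tigar, whose product restrains glycolysis, fell by 0.49 (SE 0.078), from 35.95 ± 4.79 to 25.7 ± 1.30 CPM in females and from 31.7 ± 3.98 to 22.5 ± 2.26 CPM in males. Ei24, a gene of the endoplasmic reticulum and autophagy, was called with a small change of 0.19 (SE 0.069, adjusted p = 0.0211). That call was lost without C65, C66 or C69, at adjusted p = 0.0612, 0.0691 and 0.0764 in edgeR. Aen, a nuclease gene of apoptosis, was at 0.075 (SE 0.072) and the mitochondrial electron transfer gene Fdxr at -0.00069 (SE 0.11), and neither was called. In this group of 11 genes 6 rose, 2 fell and 3 were not called, against 34.7% risen and 28.8% fallen among all genes.

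**Figure D2:**
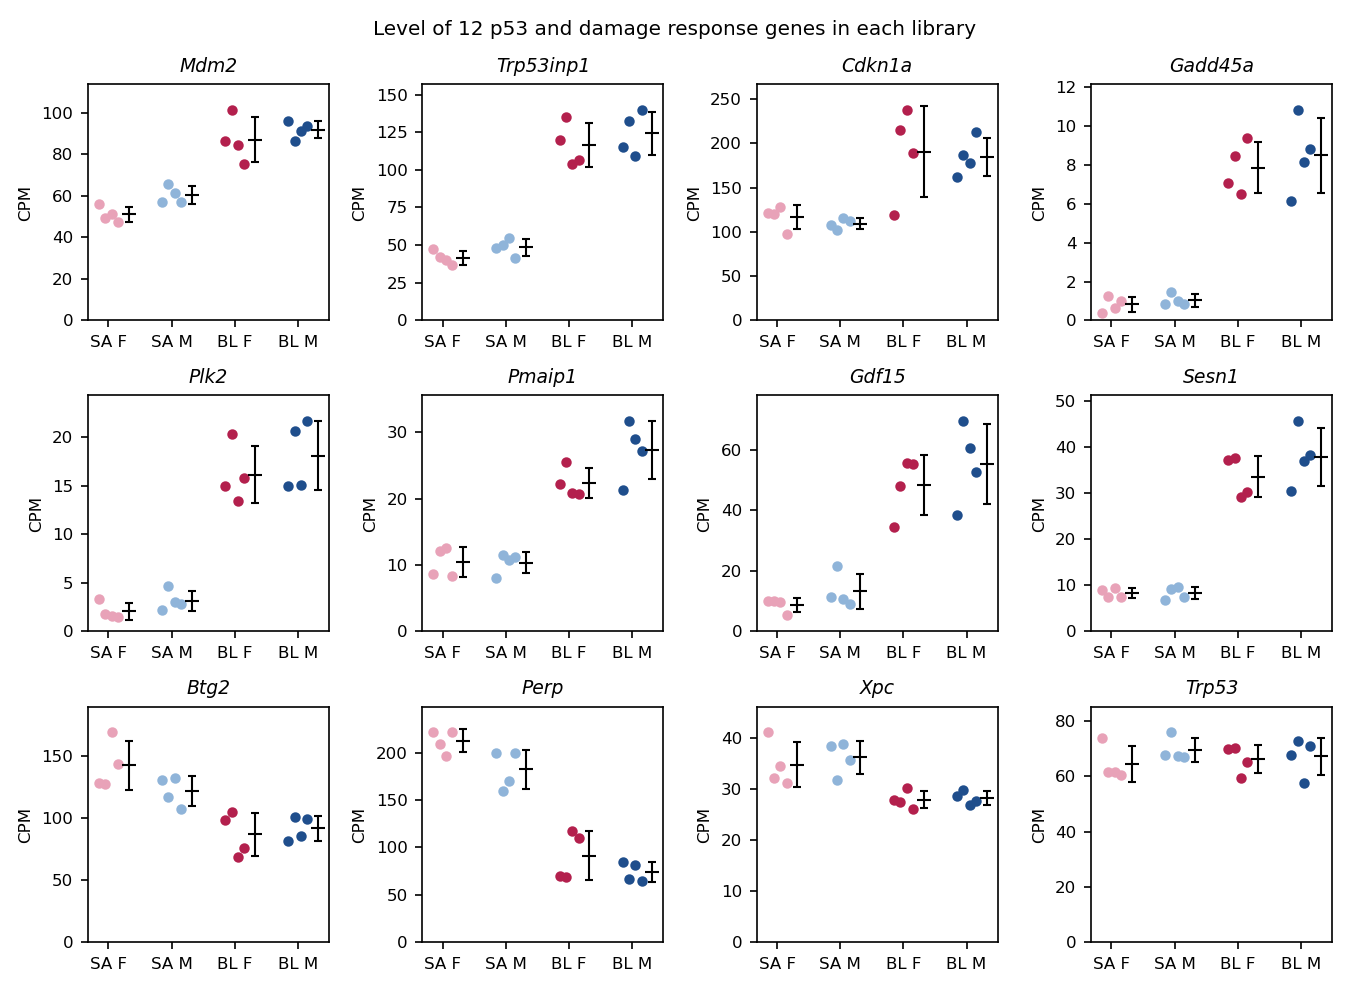
Level in CPM (vertical axis, starting at 0) of 12 genes in each of the 16 libraries, by group: SA F and SA M are saline females and males, BL F and BL M bleomycin females and males. Points are libraries, and the black mark beside them is the mean with the SD (n = 4). Gadd45a, Plk2, Gdf15 and Sesn1 have no overlap between treatments, Btg2, Perp and Xpc lie lower under bleomycin, and Trp53 overlaps throughout.

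Of 7 cell cycle brakes 5 rose, 1 fell and 1 was not called, against 34.7% risen and 28.8% fallen among all genes. Cdkn1a (ENSMUSG00000023067, chr17:29090976-29100727, plus strand), which encodes the cyclin-dependent kinase inhibitor p21, is the best known p53 target. It measured 121, 120.5, 128 and 97.9 CPM in the saline females and 107, 102, 116 and 112 CPM in the saline males. Under bleomycin the values were 119, 215, 238 and 189 CPM in females and 162, 187, 178 and 212 CPM in males. All 4 bleomycin males lay above all saline males, whereas among bleomycin females C49 fell within the saline range. The change was 0.73 (SE 0.11, adjusted p = 1.09e-05), and 0.82 without C49.

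The largest changes among the brakes were in 2 genes that were low under saline. Gadd45a (ENSMUSG00000036390, chr6:67035096-67037457, minus strand), a growth arrest protein that binds the replication clamp and p21, measured 0.388, 1.26, 0.630 and 1.02 CPM in the saline females and 0.827, 1.49, 0.980 and 0.823 CPM in the saline males. It measured 7.07, 8.49, 6.52 and 9.39 CPM in the bleomycin females and 6.15, 10.8, 8.18 and 8.81 CPM in the bleomycin males. The lowest bleomycin library was well above the highest saline library, and the change was 3.13 (SE 0.20, adjusted p = 1.92e-10). Plk2 (ENSMUSG00000021701, chr13:110395046-110400844, plus strand), a stress-induced polo-like kinase, measured 3.33, 1.78, 1.57 and 1.53 CPM in the saline females and 2.22, 4.63, 2.99 and 2.81 CPM in the saline males. It measured 14.96, 20.3, 13.5 and 15.8 CPM in the bleomycin females and 15, 20.6, 15.1 and 21.7 CPM in the bleomycin males, again without overlap, for a change of 2.75 (SE 0.17, adjusted p = 1.55e-10). Its relative Plk3 was not called at -0.051 (SE 0.068), with group means between 60.5 and 65.7 CPM.

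The neighbouring senescence genes Cdkn2a and Cdkn2b rose from low levels. Cdkn2a (ENSMUSG00000044303, chr4:89274471-89294653, minus strand), whose locus encodes p16INK4a and p19ARF as overlapping transcripts that gene counts do not separate, measured 0.943, 1.30, 0.945 and 1.59 CPM in the saline females and 0.878, 0.801, 1.32 and 1.11 CPM in the saline males. It measured 2.63, 1.55, 4.02 and 3.56 CPM in the bleomycin females and 4.06, 3.98, 3.17 and 5.23 CPM in the bleomycin males. All bleomycin males exceeded all saline libraries, while the bleomycin female C50 was just under the highest saline value, and the change was 1.64 (SE 0.21, adjusted p = 2.27e-06). Cdkn2b, which encodes p15INK4b, went from 1.64 ± 0.181 to 3.37 ± 0.938 CPM in females and from 2.45 ± 0.0506 to 4.91 ± 1.11 CPM in males (1.01, SE 0.16, adjusted p = 1.91e-05). Btg2 (ENSMUSG00000020423, chr1:134075170-134079120, minus strand), an antiproliferative p53 target, went the other way. It measured 128, 128, 169 and 144 CPM in the saline females and 131, 117, 132 and 107 CPM in the saline males. It measured 98.7, 105, 68.9 and 75.7 CPM in the bleomycin females and 81.3, 101, 85.4 and 98.9 CPM in the bleomycin males, so that all bleomycin libraries lay below all saline libraries (-0.56 (SE 0.091, adjusted p = 3.33e-05)).

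Genes grouped as cell death genes rose in 5 of 6 cases, against 34.7% of all genes. Pidd1, the caspase 2 scaffold that fell, and Aen, the apoptosis nuclease that was not called, are counted in the group with p53 instead. Eda2r, among the genes that rose, passed the filter only through the bleomycin groups. The BH3-only genes, whose products unleash the mitochondrial pore, both rose. Pmaip1, which encodes Noxa, measured 8.60, 12.04, 12.6 and 8.34 CPM in the saline females and 8.01, 11.4, 10.8 and 11.2 CPM in the saline males. It measured 22.2, 25.5, 20.9 and 20.6 CPM in the bleomycin females and 21.3, 31.7, 29.01 and 27.1 CPM in the bleomycin males. No libraries overlapped between treatments, and the change was 1.25 (SE 0.11, adjusted p = 1.61e-08). Bbc3, which encodes Puma, ran from 9.04 to 12.9 CPM under saline and 15.9 to 28.4 CPM under bleomycin, a change of 0.97 (SE 0.12, adjusted p = 7.67e-07) without overlap. Bax, the pore-forming member of the same pathway, rose by 0.48 (SE 0.075, adjusted p = 2.17e-05), with 1 bleomycin library, C49, inside the saline range. The death receptor gene Fas rose by 0.34 (SE 0.083), from 13.8 ± 1.66 to 19.5 ± 1.93 CPM in females and from 16.7 ± 1.05 to 19.1 ± 2.74 CPM in males, and the male change alone was not called (0.19 (SE 0.12, adjusted p = 0.171)).

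Eda2r (ENSMUSG00000034457, chrX:97333840-97377216, minus strand), the receptor of the tumour necrosis factor family that binds ectodysplasin A2, was almost without counts under saline. The 4 saline female libraries held 2 counts in all and the 4 saline male libraries 6, and 5 of the 8 saline libraries were at 0. Under bleomycin the libraries stood at 0.926, 1.72, 0.939 and 0.920 CPM in females (93 counts) and 0.567, 1.47, 1.04 and 1.43 CPM in males (94 counts). All 8 bleomycin libraries were above all 8 saline libraries. The ratio of levels was 45.3 in females (95% exact interval 12.2 to 379) and 14.4 in males (6.39 to 40.4), where the intervals cover counting error only. The intervals of the sexes overlap, and even under bleomycin Eda2r was the lowest of the 32 genes per transcript length.

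Perp (ENSMUSG00000019851, chr10:18845020-18857073, plus strand), a membrane protein gene of desmosomes and apoptosis, had the largest fall. It measured 222, 209.5, 196 and 222 CPM in the saline females and 199.9, 159.9, 169.9 and 199 CPM in the saline males. It measured 70.2, 68.9, 117 and 109.8 CPM in the bleomycin females and 84.3, 66.6, 81.2 and 64.3 CPM in the bleomycin males. Every bleomycin library was below every saline library (-1.26 (SE 0.11, adjusted p = 9.1e-09)). Within bleomycin females C68 and C69 stayed above C49 and C50. Summed epithelial markers also went down, lying between 742.5 and 884.1 CPM over the saline libraries and between 269.3 and 504.5 CPM over the bleomycin libraries, although 8 of the 11 markers rose and 2 fell, and none was at 0 in all libraries of a treatment. In bulk samples fewer cells of a type and less RNA per cell cannot be told apart, and the part of the epithelial RNA in the Perp result was not tested.

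None of the 5 genes of repair and nucleotide supply rose, against 34.7% of all genes. Xpc (ENSMUSG00000030094, chr6:91489305-91515888, minus strand), the sensor of bulky lesions in nucleotide excision repair, measured 41.2, 32.2, 34.6 and 31.3 CPM in the saline females and 38.4, 31.9, 38.9 and 35.7 CPM in the saline males. It measured 27.9, 27.5, 30.2 and 26.2 CPM in the bleomycin females and 28.7, 29.8, 26.8 and 27.7 CPM in the bleomycin males. The highest bleomycin value stayed under the lowest saline value, a small change of -0.34 (SE 0.066, adjusted p = 0.000233). Ercc5, the endonuclease of the same pathway, fell by 0.21 (SE 0.068, adjusted p = 0.0131). Rrm2b, the p53-inducible subunit of ribonucleotide reductase, was called at -0.13 (SE 0.051, adjusted p = 0.0336). The Rrm2b call was lost without C33, C67, C68, C70 or C77, at adjusted p from 0.0518 to 0.0821 in edgeR, and with no filter on low counts (0.133). The translesion polymerase gene Polk was at 0.019 (SE 0.092) and was not called.

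Ddb2, the damage-binding partner of Xpc in recognising ultraviolet lesions, was not called at 0.31 (SE 0.19, adjusted p = 0.159). Its bleomycin female libraries ran from 3.65 CPM in C68 to 11.9 CPM in C49, wider than all saline libraries together (3.94 to 6.63 CPM). Without C49 the change was 0.11, and without C68 it was 0.41 and called at adjusted p = 0.0355 in edgeR. Of its 2736 exon bases 652 are shared with Acp2 on the opposite strand, a gene at a mean of 2860 counts per library, and the strand setting of the counting is not given in the sources used here. Reads of the 2 genes can therefore be mixed, and the Ddb2 level is uncertain.

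All 3 genes of stress and secreted factors rose, against 34.7% of all genes. Gdf15 (ENSMUSG00000038508, chr8:70629393-70632456, minus strand), a stress cytokine released by injured cells and macrophages, measured 9.99, 10.04, 9.77 and 5.39 CPM in the saline females and 11.4, 21.7, 10.7 and 9.05 CPM in the saline males. It measured 34.5, 48.1, 55.6 and 55.2 CPM in the bleomycin females and 38.4, 69.5, 60.5 and 52.5 CPM in the bleomycin males. No saline library reached a bleomycin library, the nearest being C71, and the change was 2.26 (SE 0.18, adjusted p = 4.44e-09). Sesn1 (ENSMUSG00000038332, chr10:41809935-41908424, plus strand), a sestrin that restrains the growth kinase mTORC1 under stress, measured 8.93, 7.48, 9.51 and 7.55 CPM in the saline females and 6.92, 9.21, 9.65 and 7.45 CPM in the saline males. It measured 37.2, 37.6, 29.2 and 30.2 CPM in the bleomycin females and 30.4, 45.7, 37 and 38.3 CPM in the bleomycin males. The treatments were far apart (2.10 (SE 0.10, adjusted p = 3.85e-12)). The related Sesn2 rose by 0.39 (SE 0.070, adjusted p = 0.000111), with 2 bleomycin males, C65 and C66, inside the saline range.

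Levels can be compared between genes only per transcript length, as FPKM. Under saline Perp had the highest FPKM of the 32 genes in both sexes, at 108 ± 6.39 in females and 93.2 ± 10.6 in males. Next in females came Btg2 (51.6 ± 7.004 FPKM), Bax (45.5 ± 3.05 FPKM), Ccng1 (44.4 ± 1.41 FPKM) and Phlda3 (42.1 ± 7.64 FPKM), neighbours that did not differ beyond their spread. Under bleomycin Ccng1 was first, at 67.6 ± 11.1 FPKM in females and 70.5 ± 5.95 FPKM in males. Phlda3 was second at 62.7 ± 9.27 and 68.4 ± 7.77 FPKM, within the spread of Ccng1, and Perp, ranked 5, was at 46.02 ± 12.4 and 37.6 ± 5.07 FPKM. The most changed genes stayed low: Gadd45a reached 4.39 ± 0.722 and 4.77 ± 1.07 FPKM, and Eda2r 0.189 ± 0.0688 and 0.189 ± 0.0707 FPKM.

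The series asks whether males and females respond differently. In males 18 members rose and 6 fell, against 31.5% and 24.9% of all genes, and in females 18 rose and 5 fell, against 26.7% and 17.2%. Genes called in 1 sex alone were Ei24 and Ercc5 in males and Fas in females, and none of these differed between the sexes in the test of the difference itself. The male Ei24 call was lost with no filter on low counts (adjusted p = 0.0681) and without any 1 of the saline females (0.0505 to 0.0561 in edgeR). For the difference in bleomycin effect between males and females, 0 of 32 members were called (0.00655% of all genes), and 1 had an unadjusted p below 0.05. Between male and female saline mice 0 of 32 were called (0.269% of all genes) and 6 had an unadjusted p below 0.05. Between male and female bleomycin mice 0 were called (0.059%) and 1 had an unadjusted p below 0.05. The shares of all genes with an unadjusted p below 0.05 were not counted. The numbers of members at that level are therefore not read as an excess. DESeq2 and limma voom also called 0 members in the difference of effects and between bleomycin males and females.

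Phlda3 (ENSMUSG00000041801, chr1:135766119-135769136, plus strand) was the member with the lowest unadjusted p in the difference of effects. It measured 51.8, 78.6, 73 and 60.5 CPM in the saline females and 41.8, 46.1, 37.9 and 50.04 CPM in the saline males, with every saline male below every saline female. Under bleomycin the values were 77.03, 105, 108 and 107 CPM in females and 108, 110, 92.2 and 121 CPM in males, which overlapped. Its change was 1.29 (SE 0.14) in males and 0.59 (SE 0.13) in females, a difference of 0.70 (SE 0.19, adjusted p = 0.488). In saline mice the male level minus the female level was -0.59 (SE 0.14, adjusted p = 0.0908) in edgeR, and the gene was called under 3 of the other settings (DESeq2 at adjusted p = 0.0076, no filter at 0.00171 and the 2 saline groups alone at 0.0132). It was also called without C49 (0.03) or without C74 (0.0433).

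For the other central genes the interval of the male minus female difference in effect included 0. The approximate 95% interval was -0.37 to 0.47 for Cdkn1a, -0.40 to 0.073 for Mdm2 and -0.44 to 0.17 for Trp53inp1. It was wider for some other members, at -1.08 to 0.32 for Gdf15, -0.13 to 1.53 for Cdkn2a and -0.96 to 0.62 for Gadd45a. These widths show what 4 libraries per group could resolve, and do not show that the sexes responded alike. Under saline Cdkn2b and Mdm2 had every male above every female, at 0.57 (SE 0.23) and 0.24 (SE 0.086), but neither passed the adjustment (0.437 and 0.365). Saline males lay wholly above saline females in 6.85% of all genes and wholly below in 6.3%.

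The rest of the damage pathway was examined with lists of genes that are not among the 32. A list of further p53 targets had 14 of 19 measured genes risen and 2 fallen, with a median of 0.74. The largest change in the list was 6.04, in a gene not named here. Any gene that passed the filter only through the bleomycin groups was bound to lie higher there. Such genes were not counted apart, so the share that rose is not a test. Among all genes 34.7% rose and 28.8% fell. Ninj1, a plasma membrane rupture protein, rose from 5.41 ± 0.623 to 34.98 ± 5.42 CPM in females and from 6.14 ± 1.64 to 43.6 ± 7.32 CPM in males, a change of 2.76 (SE 0.12, adjusted p = 1.1e-12). Ephx1, a detoxifying epoxide hydrolase, rose by 2.23 (SE 0.097, adjusted p = 8.37e-13), and Steap3, a metalloreductase, by 1.99 (SE 0.087, adjusted p = 8.78e-13). The 2 that fell were Tob1, an antiproliferative relative of Btg2, at -0.87 (SE 0.066, adjusted p = 1.47e-09), and Polh, the translesion polymerase eta gene, at -0.37 (SE 0.062, adjusted p = 4.75e-05). Of the Gadd45 relatives Gadd45b rose by 2.10 (SE 0.14, adjusted p = 1.69e-10) and Gadd45g was at -0.30 (SE 0.095, adjusted p = 0.0107).

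Genes that sense and repair breaks fell more often than they rose. Of 17 damage sensors and kinases 3 rose and 10 fell, with a median of -0.20 against 0.012 for all genes. The shares of all genes were 34.7% risen and 28.8% fallen. Mdc1, which binds the histone mark at breaks, fell from 63.2 ± 3.95 to 47.2 ± 7.87 CPM in females and from 68.7 ± 1.84 to 44.5 ± 5.80 CPM in males (-0.52 (SE 0.074, adjusted p = 6.52e-06)). The kinase genes Prkdc and Atr were at -0.47 (SE 0.12, adjusted p = 0.00201) and -0.46 (SE 0.099, adjusted p = 0.000627), while H2afx, the histone variant that carries the mark, was at 0.38 (SE 0.12, adjusted p = 0.00775). The checkpoint loader gene Rad17 rose by 0.24 (SE 0.064, adjusted p = 0.00303) and the checkpoint kinase gene Chek2 by 0.21 (SE 0.079, adjusted p = 0.0291). Of 22 genes of double-strand break repair 2 rose (Xrcc4 and Rbbp8) and 12 fell, with a median of -0.25. In males 2 of these 22 rose and 12 fell, against 31.5% and 24.9% of all genes. In females 1 rose and 5 fell, against 26.7% and 17.2%. The test of the difference in effect between the sexes called 0 of the 22. Brca2, a gene of homologous recombination, had the largest of these falls among genes above the level set for naming, at -0.66 (SE 0.11, adjusted p = 2.95e-05), followed by Fancd2, a gene of crosslink repair, at -0.44 (SE 0.084, adjusted p = 0.0002). With library totals alone the same 2 lists had 0 genes risen and 12 and 16 fallen. Among all 15257 genes that scaling gave 3720 risen and 7004 fallen.

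Excision repair had 2 of 25 genes risen and 9 fallen, with a median of -0.032, or 1 and 16 with library totals alone. Among all genes 34.7% rose and 28.8% fell, or 3720 and 7004 of 15257 with library totals alone. Parp1, which marks single-strand breaks, rose from 64.01 ± 2.23 to 83.8 ± 6.44 CPM in females and from 58.5 ± 4.61 to 80.1 ± 6.69 CPM in males (0.42 (SE 0.055, adjusted p = 2.69e-06)), and the repair polymerase gene Polb rose by 0.25 (SE 0.076, adjusted p = 0.0086). Ercc1, partner of the excision nuclease, was at -0.56 (SE 0.085, adjusted p = 1.41e-05), the glycosylase gene Mpg at -0.38 (SE 0.11, adjusted p = 0.00443) and Tdp1, which clears blocked DNA ends, at -0.36 (SE 0.086, adjusted p = 0.00125). Blmh, the hydrolase that inactivates bleomycin, was at 0.30 (SE 0.074, adjusted p = 0.00191), a change that was not called with library totals alone (0.079). Regulators of p53 were split, with 4 of 14 measured genes risen and 5 fallen, or 0 and 9 with library totals alone. With TMM scaling their shares are near those of all genes. In males 2 of the 14 rose and 5 fell, against 31.5% and 24.9% of all genes. In females 2 rose and 0 fell, against 26.7% and 17.2%. The test of the difference in effect between the sexes called 0 of the 14. Mdm4, the partner of Mdm2 that holds p53 inactive, was at -0.54 (SE 0.16, adjusted p = 0.00722), with a wide spread in bleomycin females (80.7 ± 42.9 CPM). The kinase gene Hipk2 was at -0.53 (SE 0.12, adjusted p = 0.000983) and the acetyltransferase gene Ep300 at -0.24 (SE 0.096, adjusted p = 0.0366), whereas Trim24 (0.47 (SE 0.11, adjusted p = 0.0011)), Trp53bp2 (0.28 (SE 0.056, adjusted p = 0.000256)) and Rchy1 (0.24 (SE 0.073, adjusted p = 0.00867)) rose.

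Of 8 measured BCL2 family genes outside the module 5 rose and 1 fell, or 4 and 3 with library totals alone. The shares of all genes were 34.7% and 28.8%, or 3720 and 7004 of 15257 genes with library totals alone. The survival gene Bcl2 rose from 0.493 ± 0.250 to 23.9 ± 9.63 CPM in females and from 0.772 ± 0.290 to 33.8 ± 11.8 CPM in males (5.49 (SE 0.28, adjusted p = 7.24e-12)) and Bcl2l1, which encodes the survival protein Bcl-xL, rose by 0.90 (SE 0.090, adjusted p = 8.3e-08). The BH3-only gene Bid rose by 1.28 (SE 0.086, adjusted p = 2.99e-10) and the BH3-only gene Bmf fell (-0.79 (SE 0.081, adjusted p = 1.1e-07)). Among other inhibitors of cyclin-dependent kinases Cdkn2d rose by 1.25 (SE 0.13, adjusted p = 9.19e-08), Cdkn1b was at -0.21 (SE 0.066, adjusted p = 0.00973), and Cdkn2c was not called at 0.16 (SE 0.12, adjusted p = 0.232). Cdkn1c was at 2.25 (SE 0.44, adjusted p = 0.000208), from saline means of 0.229 ± 0.158 CPM in females and 0.136 ± 0.133 CPM in males. These means are under the filter level (0.51 CPM), so its inclusion rested on the bleomycin groups. Of 17 proliferation genes 1 rose, Ccne1 (0.39 (SE 0.099, adjusted p = 0.00217)), and 5 fell, with Tk1 at -0.60 (SE 0.068, adjusted p = 4.09e-07), Mki67 at -0.48 (SE 0.095, adjusted p = 0.000265) and Aurkb at -0.33 (SE 0.097, adjusted p = 0.00659). The share of these genes that fell was close to that of all genes (28.8%), and the share that rose was below theirs (34.7%). With library totals alone 0 proliferation genes rose and 11 fell.

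**Figure D3:**
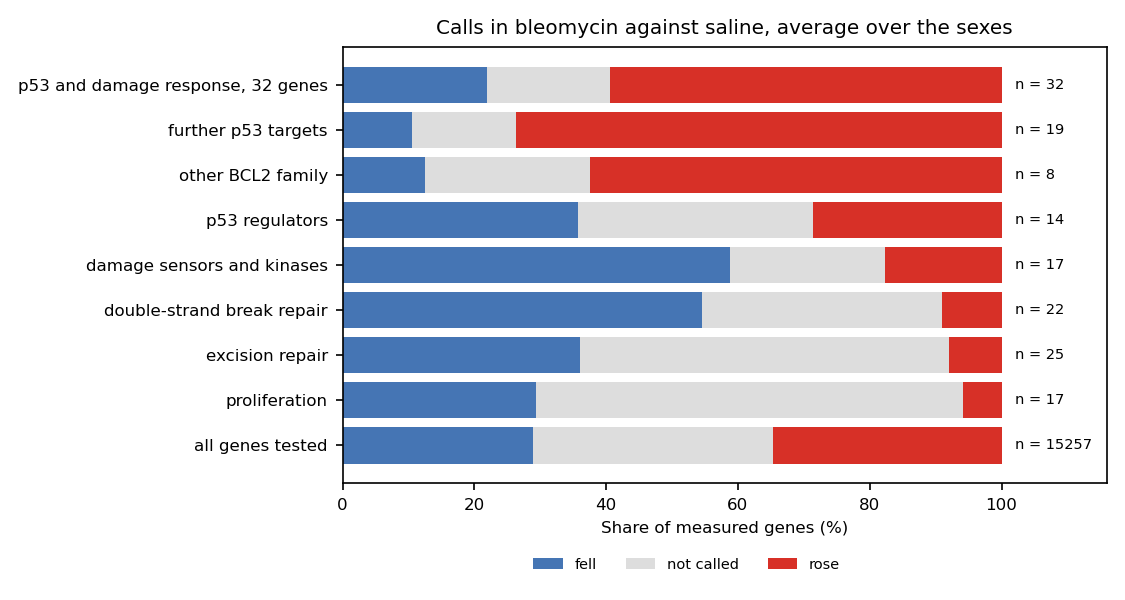
Share of measured genes (horizontal axis, percent) that fell (blue), were not called (grey) or rose (red) in bleomycin over saline, averaged over the sexes, for the 32 genes, the related lists and all 15257 genes tested. The 32 genes and the further p53 targets have larger red shares than all genes, and the sensor and double-strand break repair lists have larger blue shares.

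Markers of cell types moved with the treatment as well. Summed T cell markers were at 3.23 to 10.1 CPM over the saline libraries and 257 to 758 CPM over the bleomycin libraries, with 14 of 14 markers risen. Markers of monocytes and monocyte-derived macrophages lay between 461 and 598 CPM under saline and between 4982 and 11730 CPM under bleomycin (12 of 12 risen). Markers of resident alveolar macrophages, the main cell of a healthy lavage, were abundant in every library, between 21870 and 30910 CPM under saline and between 14410 and 28140 CPM under bleomycin (1 of 14 risen and 10 fallen). All measured markers of B cells (8 of 8, summed at 0.833 to 1.35 CPM under saline and 56.8 to 361 CPM under bleomycin), of NK cells (8 of 8, 0.93 to 2.97 and 30.2 to 82.2 CPM) and of dendritic cells (8 of 8, 20.1 to 38.9 and 173 to 363 CPM) rose too. So did 5 of 7 neutrophil markers (54.5 to 72.2 and 119.9 to 207 CPM), with 1 fallen, and 5 of 5 genes of red blood cells, whose sums overlapped (7.23 to 440.5 and 67.2 to 6018 CPM). Markers of fibroblasts and endothelium had 4 of 5 risen, with sums that also overlapped (137.5 to 184 and 160 to 255 CPM). Among the markers at 0 in all saline libraries were Ncr1 of NK cells, Ly6g and Elane of neutrophils and Col1a1 of fibroblasts, and Mpo of neutrophils was at 0 in all bleomycin libraries. The saline sums of B cell and NK cell markers are too low for every measured marker to have reached the filter level (0.51 CPM) there. Those of T cells are too low for that in every saline library but C71. Markers that passed the filter only through the bleomycin groups were bound to lie higher there, so these counts are not a test. Among all genes 34.7% rose and 28.8% fell. The part of these cell types in the changes of the 32 genes was not tested.

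Among the 8 bleomycin libraries the T cell markers fell into separate clusters, 257, 279 and 303 CPM in C68, C69 and C33 and 551 to 758 CPM in the other 5, so the pooled correlation of member levels with them is not read as a test. Of the 32 genes 3 (Sesn1, Btg2 and Pmaip1) had every one of those 5 libraries above the other 3, as did 6.23% of all genes, and 1 (Perp) had every one below, as did 3.83%, shares of members close to the background. The values of Sesn1, Btg2 and Perp are given because they were the 3 of 32 past adjustment in that pooled correlation, a choice made after the values were seen. Sesn1 was at 29.2, 30.2 and 30.4 CPM in C68, C69 and C33 and at 37.0 to 45.7 CPM in the others. Btg2 was at 68.9, 75.7 and 81.3 CPM in those 3 and at 85.4 to 104.9 CPM in the others. Perp was at 117, 109.8 and 84.3 CPM in those 3 and at 64.3 to 81.2 CPM in the others.

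**Figure D4:**
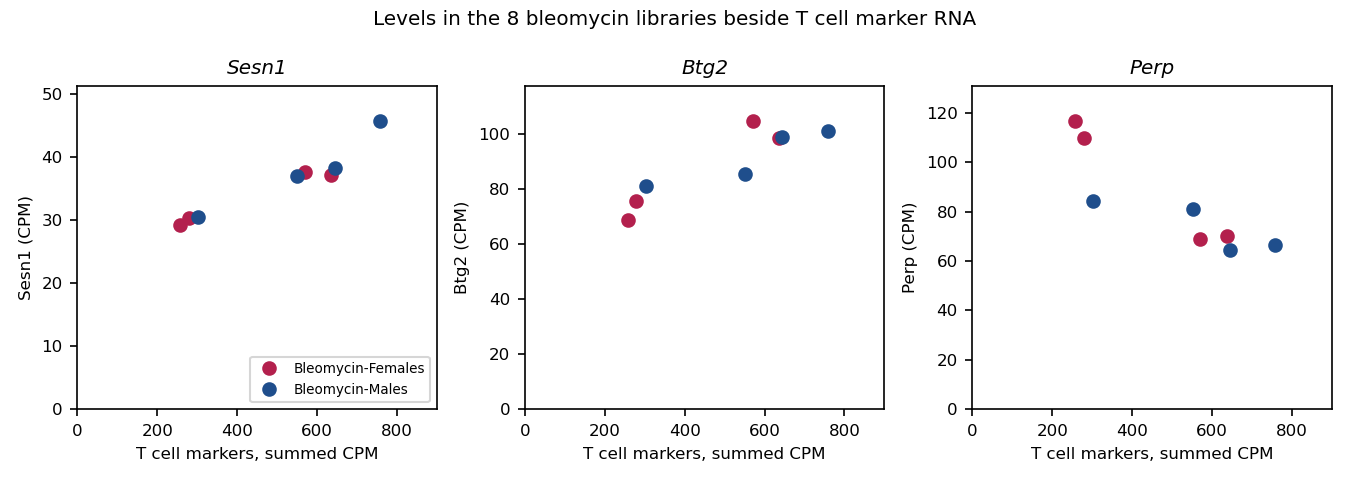
Level in CPM (vertical axis, from 0) of Sesn1, Btg2 and Perp in the 8 bleomycin libraries against the summed CPM of 14 T cell markers (horizontal axis), females in red and males in blue. The libraries form a cluster at 257 to 303 CPM of marker RNA and another at 551 to 758 CPM, with lower Sesn1 and Btg2 and higher Perp in the first.

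The mean log level of the 17 proliferation genes was set against each member in the same 8 libraries. Of 32 relations 0 passed adjustment and 0 had an unadjusted p below 0.05 (exact permutation test, two-sided). Pearson's r was farthest from 0 for Ddb2, with r = -0.62 (exact permutation p = 0.0981, adjusted 0.646) and Spearman's rho = -0.67 (exact permutation p = 0.0831, adjusted 0.629). Without the 2 libraries farthest from the median, C49 and C66, its r was -0.63. Spearman's rho was farthest from 0 for Bax, at 0.71 (exact permutation p = 0.0576, adjusted 0.629), with Pearson's r = 0.48 (exact permutation p = 0.224, adjusted 0.653), which fell to 0.17 without C49 and C66.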

How the data were processed

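RNA of lavage cells was measured by sequencing in 16 libraries, 4 per group. The table of raw counts per gene was made by the authors, and the submitters' processing notes name HISAT2 2.0.5, fastp 0.12.2, DESeq2 and featureCounts 1.5.0-p3, and the builds mm9 and mm10, without giving their roles. The FPKM values were deposited by the authors, and in each library they equal the counts divided by gene length and by 1 constant, so they carry no composition scaling. The strand setting is not given in the sources used here. The authors' own comparison tables were not used. Gene coordinates are those of the deposited tables, and 30 of 32 members have identical coordinates in GENCODE M21 (GRCm38).

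Counts were filtered with edgeR 4.0.16 (filterByExpr by group, minimum count 10, R 4.3.3), scaled by TMM (factors 0.864 to 1.10) and fitted with 1 coefficient per group over all 16 libraries in the quasi-likelihood test. P-values were adjusted by Benjamini-Hochberg over 15257 genes. The SE was derived from the change and its F statistic (change over root F), and intervals are 1.96 SE to each side, so both are approximate. The labels name no batch or pair and do not say that libraries came from separate animals, so p-values measure the spread between libraries, which may be technical. On simulated counts for the average comparison over 15257 genes the fit recovered 52.3%, 81.5% and 97% of genes changed by 0.5, 1 and 2 on the log2 scale. Only 65, 65 and 67 such genes were changed, whereas 5300 rose and 4400 fell in the data. The adjustment was therefore stricter in the simulation, and these shares do not give the recovery in the data. Alternatives were DESeq2 1.42.0, limma 3.58.1 (voom, and log2 of FPKM with pseudocounts of 0.1 and 1), other scalings and filters, the compared groups alone, and each library left out.

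The members and all gene lists were chosen with earlier results of these data known. Every member is reported. From each related list the text names up to 3 rises and 3 falls, those with the largest change among called genes at 5 CPM or more in the higher group, and every gene of lists with up to 4 genes. One gene that this rule names is not reported here. Promoter windows are from RefSeq (GRCm38.p6). Relations across the 8 bleomycin libraries used log2(CPM + 1).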

Additional observations from a re-analysis of the deposited data

Results flagged for a closer look

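In 11 of 126 groups of 4 libraries, 1 library lay far from the other 3, with a gap to its nearest neighbour above 0.829 of the group's range (Dixon's 95% value). Chance flags about 1 in 20 such groups, and members share libraries, so the groups are not independent. Among saline females, C74 was high for Trp53 (73.95 CPM, the others 60.6 to 61.65) and for Plk2 (3.329 CPM, the others 1.532 to 1.782). C77 was low for Gdf15 at 5.391 CPM (the others 9.768 to 10.04), C76 low for Ddb2 at 3.939 CPM and C75 high for Cdkn2b at 1.912 CPM. Among saline males, C71 was high for Trp53 at 76.06 CPM and C70 low for Fas at 15.14 CPM. Among bleomycin females, C49 was low for Phlda3 at 77.03 CPM (the others 105.1 to 108.5), C50 high for Eda2r at 1.723 CPM (the others 0.9204 to 0.9391) and C69 high for Fas at 22.34 CPM. Among bleomycin males, C33 was high for Pidd1 at 11.03 CPM (the others 6.484 to 6.916). Without C33 the Pidd1 change averaged over the sexes was -0.71, and without C49 that of Phlda3 was 0.99, against -0.61 and 0.94 with all libraries.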

How the results depend on the processing

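Under every other scaling, filter and tool, the members risen and fallen averaged over the sexes stayed within 1.5 times the counts reported. The count between male and female saline libraries went from 0 to 1 (Phlda3) with no filter on low counts, with the DESeq2 Wald test and with only the 2 saline groups fitted, and ran from 0 to 1 when 1 library was left out. With library totals alone Ei24 changed sign, to -0.0257, where it was not called. Leaving out 1 library gave 18 to 20 members risen and 6 to 7 fallen in the averaged comparison, 16 to 18 risen in males, and 18 to 19 risen and 4 to 5 fallen in females. The calls of Ei24 and Rrm2b, and of Sesn2 in males (lost without C33, C67, C70 or C73) and Xpc in females (lost without C74), rested on single libraries. The Rrm2b call was also lost with no filter on low counts (adjusted p = 0.133). The Ei24 call in females appeared without C49 (0.24). Of 23 changes of members that were not called (averaged, males or females), 16 changed sign under some alternative. The cause of these shifts was not tested. No paired analysis was possible because the labels give each library its own code, shared by no other group. At this depth Eda2r under saline rests on 8 counts and is the least precise.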
